A study of Mus musculus with 6 samples.

Results

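The vascular endothelial growth factor (VEGF) family was followed in brown fat, the tissue that burns fuel to make heat, taken from the interscapular depot of ADCY3∆AT and wild-type (WT) mice. The 9 members were taken by name from the deposited gene table: the ligands Vegfa, Vegfb, Vegfc and Pgf, the receptors Flt1, Kdr and Flt4, and the coreceptors Nrp1 and Nrp2. All 9 were found among the 54385 rows of the table, and all 9 passed the low-count filter, which left 18114 genes. The 3 ADCY3∆AT libraries and the 3 WT libraries came from C57BL/6N mice aged 20 weeks. Adenylyl cyclase 3 makes the second messenger cyclic AMP; its AT form, which the series title describes as truncated and induced by cold, is missing from ADCY3∆AT mice. The WT mice carry the genotype label wt/wt. Both groups ate chow until 8 weeks of age, then a high-fat diet for 12 weeks, and both spent 24 h at 4 °C, so neither group was kept warm or on chow throughout. The labels do not state whether the deletion acts in every tissue. The series design text names the inguinal depot, whereas every sample label names the interscapular one, and the sample labels are followed. The comparison asks how cold-exposed brown fat differs without this form, and here how the growth factor system of its blood vessels differs.

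VEGF ligands are secreted proteins that bind receptor tyrosine kinases on endothelial cells and drive the growth and upkeep of blood and lymph vessels. VEGF-A acts mainly through the receptor KDR (VEGFR2), while FLT1 (VEGFR1) binds VEGF-A, VEGF-B and placental growth factor and can act as a trap for them. FLT4 (VEGFR3) is the receptor of VEGF-C and VEGF-D and is known for its role in lymphatic vessels, and neuropilins hold ligands close to the receptors. Brown adipose tissue is densely supplied with capillaries, brown adipocytes are a known source of VEGF-A, and Vegfa transcription is known to respond to cold and to adrenergic signals through cyclic AMP.

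The libraries held from 44826777 to 54933588 estimated counts. Values are given as CPM, the share of a gene in its library's counts scaled with TMM factors, and fold changes are ADCY3∆AT over WT from edgeR's quasi-likelihood test, with p-values adjusted by Benjamini-Hochberg over all 18114 genes. The tissue label fitted the 6 brown adipocyte markers, Ucp1 among them. Their sums were 11870 to 12260 CPM in ADCY3∆AT and 12820 to 13020 CPM in WT. Ucp1 made up most of these sums, averaging 10090 CPM in ADCY3∆AT and 10490 CPM in WT. Of the 6 fold changes 5 were negative and 1 positive, against 50.9% positive over all tested genes. Elovl3 was lower in DESeq2 (adjusted p = 0.036) and did not pass in edgeR (adjusted p = 0.305). The targeted gene Adcy3 had 349, 342 and 506 CPM in ADCY3∆AT and 677, 728 and 652 CPM in WT, a difference that passed in DESeq2 (adjusted p = 6.97e-07) and not in edgeR (adjusted p = 0.158). ADCY3∆AT replicate 3 was thus the nearest to WT. The 1 row that passed in edgeR was ENSMUSG66666620654, which has no symbol in GENCODE M21 and which the files do not name; its last 5 digits are those of the Adcy3 identifier, ENSMUSG00000020654. ADCY3∆AT replicates 1, 2 and 3 each had 0 CPM of this row, and it had 628.6, 552.3 and 477.4 CPM in WT (edgeR adjusted p = 7.9e-06, DESeq2 adjusted p = 3.31e-43). The 12 skeletal muscle markers summed to 26.8, 245 and 498 CPM in ADCY3∆AT and to 1945, 1248 and 3676 CPM in WT. Their part in the results below was not tested. Nothing in the labels ties each library to its own animal, and the spread behind the p-values may therefore be technical in part.

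No member of the VEGF family passed the test. In edgeR 0 of 9 had an adjusted p under 0.05, against 0.00552% of all tested genes, and 0 of 9 had an unadjusted p under 0.05, against 11.0% of all tested genes, of which 5.23% were higher and 5.78% lower. DESeq2 called 0 of 9, against 1.32% of the genes it tested. With limma voom 0 of 9 passed as well, against 0.0110% of genes. In that fit 1 of 9 members, Nrp1, had an unadjusted p under 0.05, against 1991 of 18114 genes. Of the 9 fold changes 6 were positive and 3 negative, against 50.9% positive over all tested genes. Their median was 0.06 on the log2 scale, against 0.004 over all genes, and the median size was 0.07 against 0.12. A p that misses the threshold does not show that values are alike, so the 95% interval of each fold change is given with it. For the 7 members other than Vegfc and Pgf, these intervals lay between 0.858-fold and 1.20-fold.

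**Figure D1:**
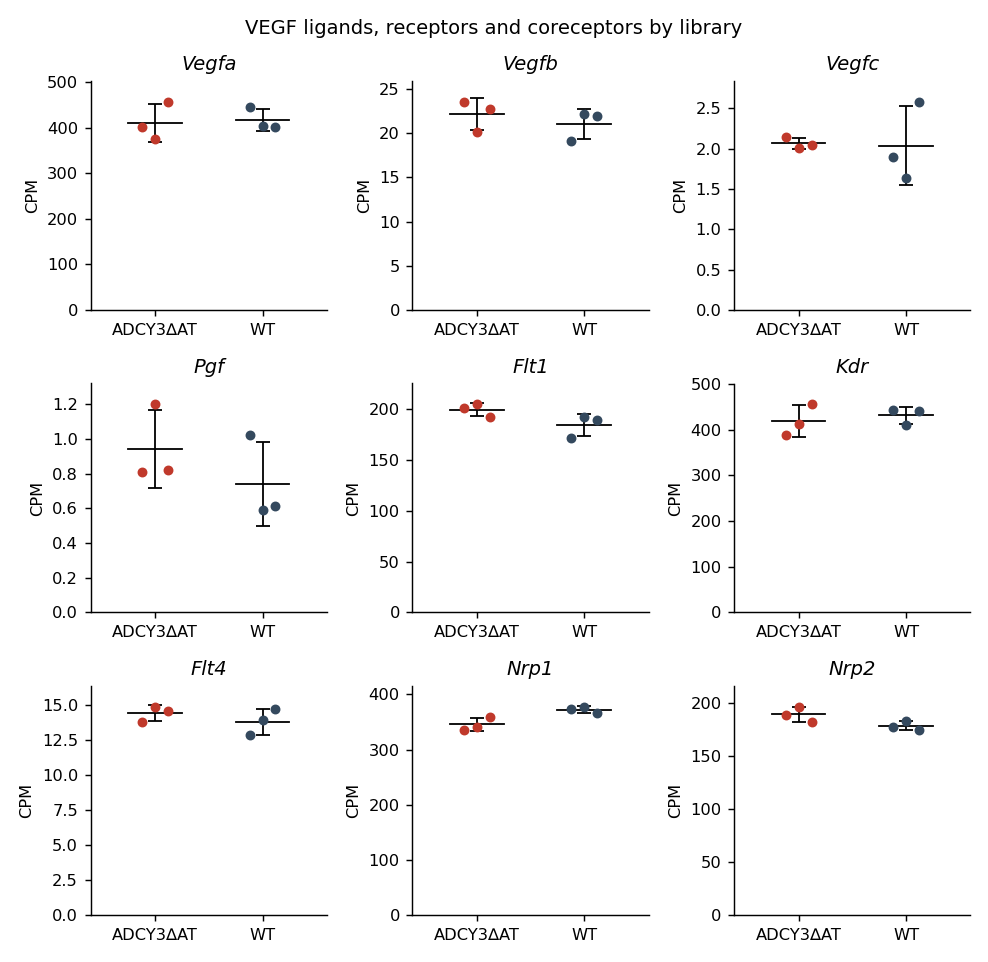
TMM-scaled CPM of the 9 members in each library, with ADCY3∆AT on the left and WT on the right of each panel. Points are libraries, horizontal lines are means and bars are 1 SD (n = 3 each), and every axis starts at 0. The groups overlap in 7 panels and separate narrowly for Flt1 and Nrp1.

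Vegfa, which encodes the main angiogenic ligand (ENSMUSG00000023951, chromosome 17, 46016993 to 46032369, minus strand, GRCm38), was the most abundant ligand. It had 401, 375 and 457 CPM in ADCY3∆AT and 446, 403 and 402 CPM in WT. The highest and the lowest value both belonged to ADCY3∆AT, and the WT libraries lay between them. The means were 411 ± 41.7 CPM in ADCY3∆AT and 417 ± 24.8 CPM in WT (SD, n = 3 each), and their log2 fold change was -0.02 ± 0.08 (SE; edgeR adjusted p = 0.949). The interval ran from 0.867-fold to 1.12-fold. The sign depended on single libraries: without ADCY3∆AT replicate 2 the log2 fold change was 0.04, without WT replicate 1 it was 0.03, and without ADCY3∆AT replicate 3 it was -0.10, none of which passed. Adipocytes, muscle fibres and other cells all make VEGF-A, and in bulk tissue fewer cells of a type cannot be told apart from less RNA per cell.

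Vegfb encodes a ligand of FLT1 linked to fatty acid uptake through the endothelium (ENSMUSG00000024962, chromosome 19, 6982473 to 6987651, minus strand). It had 23.5, 20.1 and 22.7 CPM in ADCY3∆AT and 19.1, 22.1 and 22.0 CPM in WT. The ranges overlapped, with the single lowest value in WT replicate 1. The log2 fold change was 0.07 ± 0.09 (SE; edgeR adjusted p = 0.795), with an interval from 0.918-fold to 1.20-fold. The within-library ratio of Vegfb to Vegfa on the log2 scale averaged -4.21 ± 0.12 in ADCY3∆AT and -4.31 ± 0.20 in WT (SD, n = 3 each). Its difference of 0.10 did not pass the exact two-sided permutation test (p = 0.7), for which 3 against 3 libraries cannot give less than 0.1.

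Vegfc, the main ligand of FLT4 (ENSMUSG00000031520, chromosome 8, 54077606 to 54187096, plus strand), and Pgf, placental growth factor (ENSMUSG00000004791, chromosome 12, 85166635 to 85177790, minus strand), were scarce. Vegfc had 98, 99 and 95 estimated counts in ADCY3∆AT and 104, 72 and 118 in WT, or 2.14, 2.01 and 2.04 CPM against 1.90, 1.64 and 2.58 CPM. All 3 ADCY3∆AT values lay inside the WT range. The log2 fold change of Vegfc was 0.02 ± 0.20 (SE; edgeR adjusted p = 0.981), with an interval from 0.736-fold to 1.40-fold. Pgf had 37, 59 and 38 estimated counts in ADCY3∆AT and 56, 26 and 28 in WT, or 0.809, 1.20 and 0.818 CPM against 1.02, 0.590 and 0.613 CPM. One library of each group stood above its other two, so the groups overlapped. The log2 fold change of Pgf was 0.34 ± 0.31 (SE; edgeR adjusted p = 0.728), and its interval from 0.776-fold to 2.05-fold was the widest of the 9. With single libraries left out the log2 fold change of Pgf ran from 0.12 to 0.65. The log2 ratio of Pgf to Vegfa averaged -8.72 ± 0.43 in ADCY3∆AT and -9.10 ± 0.33 in WT (SD, n = 3 each; exact permutation p = 0.3), and with single libraries left out the difference ran from 0.13 to 0.57. Vegfd, the other ligand of FLT4 and not among the 9, had 0.809, 0.996 and 0.861 CPM in ADCY3∆AT and 0.620, 1.14 and 1.09 CPM in WT, with a log2 fold change of -0.09 ± 0.28 (SE; edgeR adjusted p = 0.942).

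**Figure D2:**
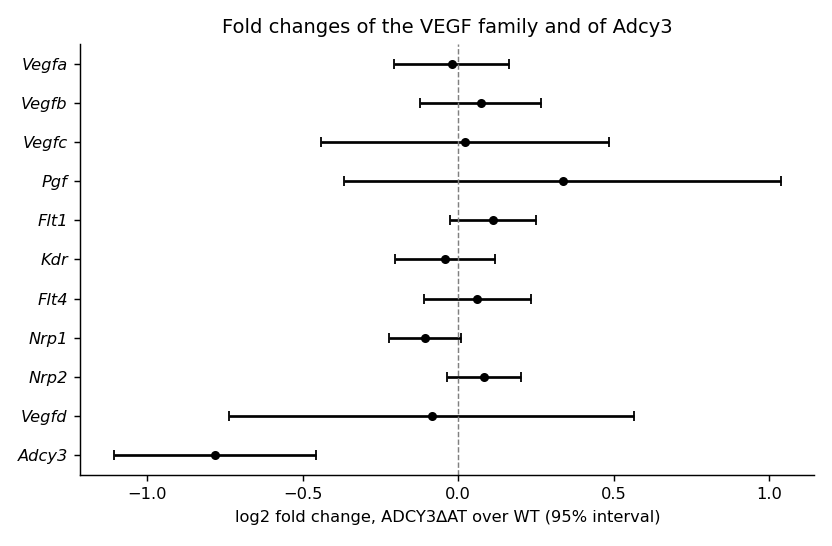
Log2 fold changes of the 9 members, of Vegfd and of the targeted gene Adcy3, ADCY3∆AT over WT. Points are edgeR estimates and bars are 95% intervals; every interval of a VEGF gene holds 0, and that of Adcy3 (-0.78) does not.

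Kdr encodes the main signalling receptor of VEGF-A (ENSMUSG00000062960, chromosome 5, 75932827 to 75978458, minus strand). It had 388, 413 and 456 CPM in ADCY3∆AT and 444, 410.1 and 440.0 CPM in WT. The groups overlapped, and ADCY3∆AT replicate 1 was the lowest library. Kdr averaged 419 ± 34.3 CPM in ADCY3∆AT and 431 ± 18.4 CPM in WT (SD, n = 3 each). The log2 fold change was -0.04 ± 0.07 (SE; edgeR adjusted p = 0.860), with an interval from 0.869-fold to 1.08-fold. Without ADCY3∆AT replicate 1 its sign turned, to 0.0088, and without ADCY3∆AT replicate 3 it was -0.11.

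Flt1 encodes a receptor that binds VEGF-A tightly but signals weakly (ENSMUSG00000029648, chromosome 5, 147561604 to 147726011, minus strand). It had 201, 205 and 192.3 CPM in ADCY3∆AT and 172, 192.0 and 189.7 CPM in WT. Every ADCY3∆AT library lay above every WT library, though ADCY3∆AT replicate 3 and WT replicate 2 nearly touched. The log2 fold change was 0.11 ± 0.06 (SE; edgeR adjusted p = 0.537, unadjusted p = 0.0965), with an interval from 0.983-fold to 1.19-fold. The gene table sums the membrane and the soluble form of FLT1, so these cannot be told apart here. Within libraries, the log2 ratio of Flt1 to Kdr averaged -1.07 ± 0.16 in ADCY3∆AT and -1.23 ± 0.14 in WT (SD, n = 3 each), a difference of 0.16 with overlapping groups (exact permutation p = 0.3).

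Flt4 encodes the receptor of VEGF-C and VEGF-D (ENSMUSG00000020357, chromosome 11, 49609263 to 49652739, plus strand). It had 13.8, 14.9 and 14.6 CPM in ADCY3∆AT and 12.9, 13.9 and 14.7 CPM in WT, ranges that overlapped, with WT replicate 1 below every ADCY3∆AT library. A log2 fold change of 0.06 ± 0.08 (SE; edgeR adjusted p = 0.807) was found, with an interval from 0.926-fold to 1.18-fold. FLT4 is also made by some blood capillaries, and the 5 lymphatic endothelial markers, among them Lyve1 and Prox1, were low, summing to 5.40, 9.41 and 5.17 CPM in ADCY3∆AT and to 9.06, 6.90 and 13.2 CPM in WT. Prox1, a transcription factor that defines lymphatic endothelium, was below the low-count filter. The other 4 markers had negative fold changes with overlapping groups, against 50.9% positive over all tested genes. Their median was -0.63 in log2 units. Neither edgeR nor DESeq2 called any (0 of 4), and in edgeR 0 had an unadjusted p under 0.05, against 11.0% of all tested genes. The log2 fold changes were -0.87 ± 0.39 (SE) for Mmrn1, -0.81 ± 0.60 for Ccl21a, -0.46 ± 0.36 for Pdpn and -0.22 ± 0.34 for Lyve1. In limma voom Mmrn1 had an unadjusted p of 0.0251 and an adjusted p of 0.381.

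The fold changes of the coreceptors were small and of opposite sign, and neither passed. Nrp1 encodes neuropilin 1, a coreceptor of VEGF-A and receptor of class 3 semaphorins (ENSMUSG00000025810, chromosome 8, 128358604 to 128503363, plus strand). It had 336, 341 and 359 CPM in ADCY3∆AT and 373, 378 and 366 CPM in WT, so that all 3 ADCY3∆AT values were below all 3 WT values. The means were 345 ± 12.2 CPM in ADCY3∆AT and 372 ± 6.03 CPM in WT (SD, n = 3 each). The log2 fold change of -0.11 ± 0.05 (SE) had the lowest p of the 9 members and did not pass (edgeR adjusted p = 0.488, unadjusted p = 0.0633), with an interval from 0.858-fold to 1.01-fold. In limma voom its unadjusted p was 0.0412 and its adjusted p 0.430.

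Nrp2 encodes neuropilin 2, a coreceptor of VEGF-C found on veins and lymphatic vessels (ENSMUSG00000025969, chromosome 1, 62703285 to 62818695, plus strand). It had 189.0, 196 and 182 CPM in ADCY3∆AT and 177, 183 and 175 CPM in WT. Only ADCY3∆AT replicate 3 reached into the WT range. ADCY3∆AT differed from WT by 0.08 ± 0.05 (SE; edgeR adjusted p = 0.603) on the log2 scale, with an interval from 0.976-fold to 1.15-fold. Groups that did not overlap were thus seen for 2 of 9 members, against 16.5% of all tested genes. Flt1 was higher, as were 7.68% of all tested genes, and Nrp1 was lower, as were 8.83%. In GENCODE M21 only Nrp1 and Nrp2 overlap other genes. An antisense transcript at Nrp2 reached at most 0.0610 CPM, a same-strand unclassified transcript at Nrp2 averaged 3.26 CPM in ADCY3∆AT and 2.77 CPM in WT, and a microRNA inside Nrp1 was at 0.

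Levels of the 9 genes were set beside each other per kilobase of annotated exon, because longer transcripts yield more counts. Over the 6 libraries the order was Vegfa, at 96.6 CPM per kilobase, then Kdr at 47.1, Nrp1 at 36.7, Nrp2 at 15.5, Flt1 at 14.2, Vegfb at 13.5, Flt4 at 1.71, Vegfc at 0.838 and Pgf at 0.290 CPM per kilobase. The ranges of Nrp2 and Flt1 over the 6 libraries overlapped, as did those of Flt1 and Vegfb. Within each single library Nrp2 was nonetheless above Flt1, and Flt1 above Vegfb, if narrowly in some. The ranges of all other neighbours in the order did not overlap. The exon length joins all annotated transcripts of a gene, which lowers the value of genes with long alternative exons.

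**Figure D3:**
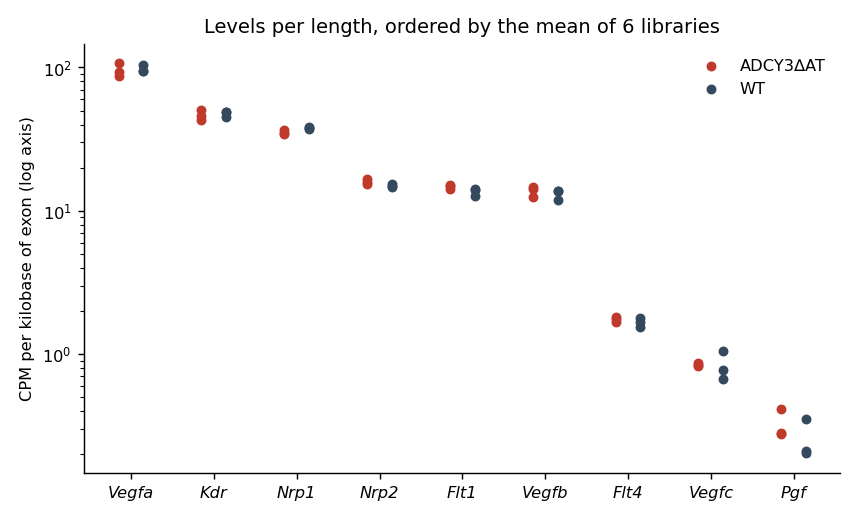
CPM per kilobase of annotated exon for the 9 members in each library, on a log axis, ordered by the mean over 6 libraries. The genes span from 96.6 (Vegfa) to 0.290 (Pgf), and on this axis ADCY3∆AT and WT points of most genes lie close together. The scarce ligands spread more, with single libraries from 0.203 to 0.413 for Pgf and from 0.668 to 1.05 for Vegfc.

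On this per-length scale Vegfa made up 86.5 ± 0.97% of the summed ligand level in ADCY3∆AT and 87.2 ± 1.45% in WT (SD, n = 3 each), and Vegfb held most of the rest. Kdr made up 73.7 ± 1.99% of the summed receptor level in ADCY3∆AT and 75.7 ± 1.71% in WT. Flt1 held 23.6 ± 1.89% in ADCY3∆AT and 21.7 ± 1.56% in WT. Nrp1 made up 68.3%, 67.8% and 70.5% of the summed neuropilin level in ADCY3∆AT and 71.8%, 71.4% and 71.7% in WT. The 3 ADCY3∆AT libraries lay below the 3 WT libraries, a split that was noticed after the values had been seen and is given without a test.

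Endothelial cells carry most VEGF receptors, so each receptor was also set against endothelial markers in its own library. The 16 endothelial markers, none of them a member, summed to 1313, 1411 and 1413 CPM in ADCY3∆AT and to 1242, 1215 and 1238 CPM in WT. Their mean log2 CPM was 5.71 ± 0.066 in ADCY3∆AT and 5.56 ± 0.018 in WT (SD, n = 3 each), a difference of 0.16 with every ADCY3∆AT library above every WT library. Cdh5, the adhesion protein of endothelial junctions, averaged 181 ± 13.0 CPM in ADCY3∆AT and 149 ± 5.74 CPM in WT (SD, n = 3 each). It was higher in DESeq2 (adjusted p = 0.0224) and did not pass in edgeR (log2 fold change 0.28 ± 0.07, SE; adjusted p = 0.212). For the tight junction protein Cldn5 the log2 fold change was 0.81 ± 0.20 (SE), and for Pecam1, an endothelial adhesion protein, 0.19 ± 0.06 (SE), neither past the threshold in edgeR or DESeq2. Over the 16 markers 14 fold changes were positive and 2 negative, against 50.9% positive over all tested genes, and 6 were higher at an unadjusted p under 0.05, the direction of 5.23% of all genes. The 2 negative ones, named after their values were seen, were those of Emcn, a sialoprotein of the endothelial surface (-0.07 ± 0.07, SE), and Sox18, an endothelial transcription factor (-0.07 ± 0.10, SE).

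Relative to these markers Kdr and Nrp1 were lower in every ADCY3∆AT library than in every WT library. The markers were themselves higher by 0.16 in ADCY3∆AT. Kdr alone had a log2 fold change of -0.04 with overlapping groups, and Nrp1 alone -0.11. The ratio of Kdr thus differed mostly through the level of the markers. The log2 ratio of Kdr to the markers was 2.95, 2.97 and 3.06 in ADCY3∆AT and 3.22, 3.13 and 3.24 in WT, a difference of -0.20. For Nrp1 it was 2.75, 2.69 and 2.71 in ADCY3∆AT and 2.97, 3.01 and 2.98 in WT, a difference of -0.27. In both cases the p of the exact permutation test, two-sided, was 0.1, which is the smallest it can give here, and 0.4 after adjustment over the 8 ratios tested, so neither passed. With Pecam1, Cdh5 and Tie1 alone as markers the differences were -0.25 for Kdr and -0.32 for Nrp1. These 3 markers were themselves higher in ADCY3∆AT (log2 fold changes 0.19, 0.28 and 0.16). That lowers any ratio taken to them, so this choice of markers is no independent check.

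For the other receptors the groups overlapped. Relative to the 16 markers the difference was -0.05 for Flt1 (exact permutation p = 0.5), -0.10 for Flt4 (exact permutation p = 0.3) and -0.08 for Nrp2 (exact permutation p = 0.4). With Pecam1, Cdh5 and Tie1 alone the difference for Nrp2 was -0.12 and its groups no longer overlapped (exact permutation p = 0.1, the smallest possible). Flt1 then gave -0.09 (exact permutation p = 0.4) and Flt4 -0.15 (exact permutation p = 0.2). The higher level of these markers in ADCY3∆AT lowers these ratios too. Neuropilins are also made by cells other than endothelium. Across the same libraries the sum of the 12 muscle markers was lower in ADCY3∆AT and the sum of the 16 endothelial markers higher. Of those 16 markers 14 had positive and 2 negative fold changes. Whether a shift in the mix of cells takes part in these ratios was not tested.

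**Figure D4:**
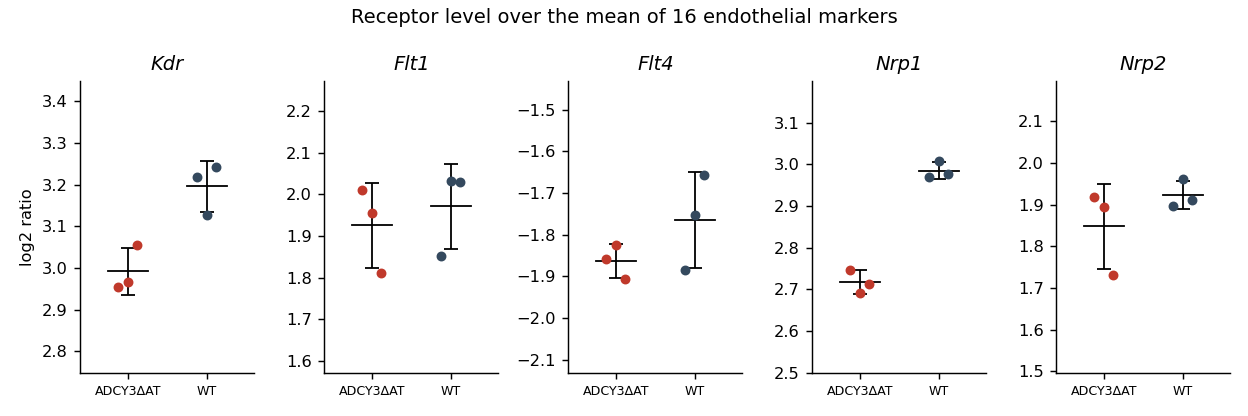
Log2 ratio of each receptor or coreceptor to the mean of the 16 endothelial markers, per library, ADCY3∆AT left and WT right. Points are libraries, lines are means and bars are 1 SD (n = 3 each); each axis spans the same number of log2 units. The ratios of Kdr and Nrp1 lie lower in all 3 ADCY3∆AT libraries, and the groups overlap in the other panels. The markers themselves were higher in ADCY3∆AT.

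The genes around the VEGF system were then read from lists. Notch and tip cell genes act downstream of VEGF-A at the sprouting front of vessels, and 13 of 14 were tested. In DESeq2 3 were higher and 0 lower, against 1.32% of the genes it tested called in either direction. In edgeR 0 passed and 4 were higher at an unadjusted p under 0.05, the direction of 5.23% of all genes. The median log2 fold change was 0.12. Aplnr, the receptor of apelin on sprouting endothelium, had 29.6, 35.1 and 34.5 CPM in ADCY3∆AT and 25.4, 23.4 and 21.7 CPM in WT. Its log2 fold change was 0.49 ± 0.08 (SE; DESeq2 adjusted p = 5.03e-04, edgeR adjusted p = 0.150).

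Apln, the apelin ligand made by tip cells, had 13.0, 13.7 and 15.5 CPM in ADCY3∆AT and 10.5, 9.17 and 10.02 CPM in WT, a log2 fold change of 0.50 ± 0.09 (SE; DESeq2 adjusted p = 0.00388, edgeR adjusted p = 0.158). Dll4, the Notch ligand of tip and arterial cells, had 23.1, 23.8 and 24.6 CPM in ADCY3∆AT and 17.5, 17.8 and 20.2 CPM in WT, a log2 fold change of 0.37 ± 0.07 (SE; DESeq2 adjusted p = 0.0152, edgeR adjusted p = 0.158). For all 3 genes every ADCY3∆AT library lay above every WT library, as for 7.68% of all tested genes. The mean of the 16 endothelial markers likewise lay higher in every ADCY3∆AT library than in every WT library. The part of those markers was not tested. Without the low-count filter edgeR also called Aplnr (adjusted p = 0.0103), Apln (0.0226) and Dll4 (0.0404) higher. Leaving out single libraries kept the log2 fold change between 0.43 and 0.56 for Aplnr and Apln and between 0.33 and 0.43 for Dll4. For Hey1, a transcription factor that Notch signalling induces, the log2 fold change was -0.07 ± 0.07 (SE), and for Pdgfb, a tip cell ligand that recruits pericytes, it was -0.0041 ± 0.0876 (SE). Both were taken as examples after their values had been seen. Over the 13 tested genes of this list 10 fold changes were positive and 3 negative, against 50.9% positive over all tested genes. Hes1 and Nid2, also of this list, had log2 fold changes of 0.29 ± 0.17 and 0.34 ± 0.11 (SE).

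Of the angiopoietin and Tie list 5 of 6 genes were tested. None passed (0 in edgeR, 0 in DESeq2), and 2 of 5 had an unadjusted p under 0.05, against 11.0% of all genes. All 5 fold changes were positive, against 50.9% of all genes, their median being 0.16 in log2 units. Tie1 and Tek are also among the endothelial markers above, so the lists are not separate observations. Angptl4, an angiopoietin-like inhibitor of lipoprotein lipase, had 169, 128 and 111 CPM in ADCY3∆AT and 101, 98.8 and 108 CPM in WT, a log2 fold change of 0.40 ± 0.14 (SE), which was 0.21 without ADCY3∆AT replicate 1. Tie1, an endothelial receptor, had 0.16 ± 0.06 (SE) and Angpt1, the ligand of the receptor TEK, 0.44 ± 0.20 (SE), which was 0.22 without the same library.

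Messengers inside the cell below VEGF receptors showed no common direction. Of 27 tested genes 15 had positive and 12 negative fold changes, and the median was 0.01 in log2 units. None passed in edgeR or DESeq2, and 5 of 27 had an unadjusted p under 0.05, against 11.0% of all genes. Of these 3 were higher, against 5.23% of all genes, and 2 lower, against 5.78%. Mapkapk2, a kinase that relays p38 signals, averaged 305 ± 40.7 CPM in ADCY3∆AT and 373 ± 23.4 CPM in WT (SD, n = 3 each), with -0.29 ± 0.10 (SE) as its log2 fold change. Plcg1, the phospholipase that binds activated KDR, had 0.17 ± 0.06 (SE), and Pik3r1, a regulatory subunit of PI3 kinase, -0.63 ± 0.21 (SE). Most of these messengers serve many receptors and many cell types.

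Hypoxia-inducible factors are known inducers of Vegfa. Of their list of factors and regulators 9 of 10 were tested, with 0 past the threshold by either edgeR or DESeq2 and none (0) under an unadjusted p of 0.05. The median log2 fold change was -0.06. Epas1, which encodes HIF-2 alpha and is abundant in endothelium, averaged 624 CPM in ADCY3∆AT and 596 CPM in WT. Hif1a averaged 129 CPM in ADCY3∆AT and 135 CPM in WT. These were taken for their role, whereas Arnt2, a dimer partner (log2 fold change -0.93 ± 0.42, SE), Egln3, a prolyl hydroxylase that marks the factors for decay (-0.25 ± 0.12), and Vhl, of the ubiquitin ligase that removes them (-0.11 ± 0.07), had the lowest p-values. Arnt2 was near the detection limit, at 0.192 CPM in ADCY3∆AT and 0.365 CPM in WT.

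Of the hypoxia targets 13 of 14 were tested and 0 passed, whether in edgeR or in DESeq2. By unadjusted p, 5 of 13 were higher under 0.05, against 5.23% of all genes, and 1 was lower, against 5.78%, and the median log2 fold change was 0.17. Kdm3a, a histone demethylase, had 52.1, 47.9 and 43.8 CPM in ADCY3∆AT and 41.3, 37.2 and 39.5 CPM in WT, a log2 fold change of 0.29 ± 0.07 (SE). Hilpda, a lipid droplet protein, had 0.55 ± 0.17 (SE). Pfkfb3, which drives glycolysis in sprouting endothelium and other cells, averaged 429 ± 26.3 CPM in ADCY3∆AT and 516 ± 40.8 CPM in WT (SD, n = 3 each), with -0.27 ± 0.07 (SE) as its log2 fold change. The list therefore held values in both directions.

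Class 3 semaphorins share the neuropilins with VEGF and signal through plexins. All 12 genes were tested, and neither edgeR (0) nor DESeq2 (0) called any. By unadjusted p 2 of 12 were under 0.05, both higher, the direction of 5.23% of all genes. Groups that did not overlap were seen for 2 of 12, or 16.7%, against 16.5% of all genes, and the median log2 fold change was 0.18. Plxnd1, the plexin of vascular endothelium, had 191, 209 and 197 CPM in ADCY3∆AT and 189.5, 163 and 179 CPM in WT, a log2 fold change of 0.17 ± 0.07 (SE). Plxna4 had 0.34 ± 0.12 (SE) and Plxna2 0.15 ± 0.09 (SE).

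Among 14 other angiogenic ligands and inhibitors 0 passed by edgeR and 0 by DESeq2, while 5 of 14 had an unadjusted p under 0.05, all higher, the direction of 5.23% of all genes, with a median log2 fold change of 0.22. Vash1, an inhibitor of angiogenesis made by endothelium, had 5.86, 6.34 and 7.10 CPM in ADCY3∆AT and 5.34, 4.07 and 4.90 CPM in WT, a log2 fold change of 0.43 ± 0.13 (SE). Thbs1, a matrix protein that inhibits angiogenesis, had 0.63 ± 0.23 (SE) and the chemokine Cxcl12 0.22 ± 0.09 (SE).

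**Figure D5:**
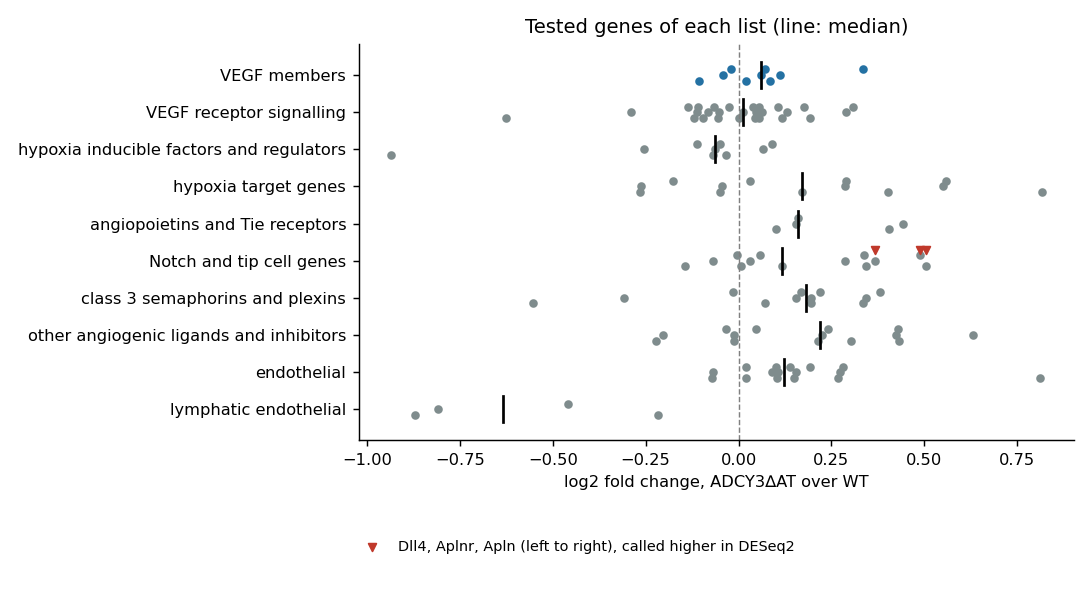
Log2 fold changes, ADCY3∆AT over WT, of the tested genes of each list, with the median of each list as a vertical line. Points are genes; the 9 VEGF members lie between -0.11 and 0.34, and Dll4, Aplnr and Apln are marked in the Notch and tip cell list.

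Genes whose pattern over the 6 libraries was most like that of a member were found by the root mean square difference of centred log2 CPM, over the 8386 protein-coding genes whose log2 CPM averaged 3 or more. Vegfa was closest to Nsmce1 (0.0166 log2 units) and Arhgef3 (0.0274), against a median of 0.127 over all candidates. Kdr was closest to Spg20 (0.0119) and Rpl36al (0.0209), against a median of 0.117. Flt1 was closest to Zcchc14 (0.0160) and Atf7ip (0.0166), against a median of 0.118. With 6 libraries and 8386 candidates, close matches are found for most patterns, and nothing about function follows from them.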

How the data were processed

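Total RNA of 6 libraries, 3 ADCY3∆AT and 3 WT, was sequenced in pairs of reads from NEBNext Ultra II libraries, per the labels. The authors deposited estimated counts for each Ensembl gene, without scaling, of which 31.6% are not whole numbers. The submitters' processing notes list GRCm38, Salmon, StringTie and edgeR but give neither versions nor roles, and no source used here gives the strand setting. Dividing reads among transcripts can shift counts between related genes. Of 54385 rows 54131 matched a symbol in GENCODE M21, and each of the 178 list genes matched 1 row.

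Estimated counts were rounded, filtered with filterByExpr, scaled with TMM factors and tested for genotype alone with edgeR 4.0.16 (R 4.3.3), calling genes at a Benjamini-Hochberg adjusted p under 0.05. This called 1 gene lower and 0 higher, a row without a symbol. Standard errors are those implied by the F statistic, and intervals used its degrees of freedom. Ratios within libraries used log2 CPM with a prior count of 2 and exact permutation tests in scipy 1.17.1, adjusted over 8 ratios. DESeq2 1.42.0 and limma voom (limma 3.58.1) were run on the same genes. No 2 libraries agreed within sampling noise (chi-square per degree of freedom from 24.4 to 72.6).

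The members and lists were chosen with earlier results of these data known. The rule named the 9 members, Vegfd, Adcy3, the 3 lowest p-values of each list, and for Vegfa, Kdr and Flt1 the 2 genes of most similar pattern. Marker lists of cell types other than endothelial, lymphatic endothelial, mural and brown adipocyte cells are given by their sums alone. Alternatives were RLE factors, library totals, DESeq2, limma voom, robust estimation, other low-count filters, another threshold or prior count, other endothelial markers, leaving out each library, and the replicate number as a block.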

Additional observations from a re-analysis of the deposited data

How the results depend on the processing

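No member passed under any alternative run, including the replicate block, an adjusted p of 0.1 and each library left out. The members' fold changes turned sign in 6 of 125 recomputations, all of them with 1 library left out, over which the log2 fold change ran from -0.1044 to 0.0399 for Vegfa, from -0.1121 to 0.2239 for Vegfc and from -0.1082 to 0.0088 for Kdr. For Vegfd it ran from -0.3237 to 0.0627. Among the ratios, Vegfb to Vegfa ran from -0.0224 to 0.1563 and Flt1 to endothelial markers from -0.1045 to 0.0116 when libraries were left out. The number of genes called over the whole table was 1 in edgeR, 239 in DESeq2, 2 in limma voom, 2 with robust estimation, 214 without a low-count filter, 3 with the replicate block, and from 1 to 66 with 1 library left out, the 66 without ADCY3∆AT replicate 3 and 4 without WT replicate 2; why the tools differ was not tested. Deviations of same-numbered libraries correlated at -0.086, -0.128 and -0.086, so no shared deviation by replicate number was seen. Whether same-numbered libraries were handled together cannot be read from these values. Under the block Nrp1 and Kdr relative to endothelial markers had p = 0.25 in the exact sign-flip test, the smallest that 3 pairs allow. Depth limits the scarce ligands Pgf, Vegfc and Vegfd. Pgf had too few libraries above 1 CPM to be tested under that filter.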

Other observations

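Mural cells, the pericytes and smooth muscle cells that wrap vessels and answer to endothelial ligands, were looked at by 9 markers. These summed to 916, 831 and 808 CPM in ADCY3∆AT and to 766, 831 and 842 CPM in WT, and the groups overlapped. In edgeR and DESeq2 0 of the 9 passed, with 1 of 9 at an unadjusted p under 0.05, against 11.0% of all tested genes, and 6 fold changes were positive and 3 negative. That was Notch3, a Notch receptor of mural cells, with 66.0, 64.3 and 60.5 CPM in ADCY3∆AT and 41.2, 49.6 and 57.8 CPM in WT, a log2 fold change of 0.36 ± 0.11 (SE; edgeR adjusted p = 0.312, DESeq2 adjusted p = 0.0841). The 3 negative log2 fold changes, named after their values were seen, were those of the pericyte markers Higd1b (-0.14 ± 0.12, SE), Kcnj8 (-0.09 ± 0.08) and Abcc9 (-0.04 ± 0.06), while the pericyte marker Rgs5 had 0.08 ± 0.07 (SE); groups overlapped for all 4.

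Markers of other cells gave these sums. The 6 fibroblast markers summed to 346 to 375 CPM in ADCY3∆AT and 293 to 349 CPM in WT, and the 6 macrophage markers to 119 to 182 CPM in ADCY3∆AT and 104 to 171 CPM in WT. The 6 adipocyte markers summed to 7462 to 8537 CPM in ADCY3∆AT and 7785 to 7867 CPM in WT. The 4 Schwann cell markers summed to 40.0 to 45.6 CPM in ADCY3∆AT and 49.6 to 54.7 CPM in WT, and the 4 red cell genes to 1249 to 1369 CPM in ADCY3∆AT and 1283 to 1880 CPM in WT.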
